A study of Sus scrofa with 70 samples.

Results

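The cysteine-rich secretory proteins of the pig, CRISP1, CRISP2 and CRISP3, and their relatives with LCCL domains, CRISPLD1 and CRISPLD2, were followed through the male reproductive tract. The 5 genes were chosen by name, and the TPM (transcripts per 1000000, scaled for length) of all transcripts under one gene name were summed. They are 5 of the 35527 genes in the table, and all 5 reached at least 1 TPM in at least 3 libraries, the minimum for a test. The samples came from 12-month-old boars of an inbred line, the Banna mini-pig (BMI), and of the non-inbred Diannan small-ear pig (DSE) from which the line was bred. The labels name no treatment, allele or transgene in either breed. Tissue came from 5 organs, here abbreviated Tes for the testis, Epi for the epididymis, and VG, PG and BG for the vesicular, prostate and bulbourethral glands, with 3 short-read RNA-seq libraries and 1 long-read Iso-seq library per breed and gland, 30 and 10 libraries in all. The labels do not tie a library to a boar and do not give the region of the epididymis, so a p-value measures the spread between libraries, part of which may be technical.

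CRISP proteins are secreted proteins built of a CAP domain, shared with plant and venom proteins, followed by a small cysteine-rich domain that acts on ion channels in several known cases. In mammals CRISP1 is a product of the epididymal epithelium that coats sperm in transit, CRISP2 is made by spermatids and sits in the acrosome and tail, and CRISP3 is made by exocrine glands and is found in seminal plasma. CRISPLD1 and CRISPLD2 carry LCCL domains after the CAP region, and CRISPLD2 is a secreted protein of mesenchymal and other cells that binds lipopolysaccharide.

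The glands carried the markers of their labels. In limma fits of log2(TPM + 1), 10 of 10 tested spermatid genes were higher in the testis (34.6% of all genes were), 10 of 10 epididymal epithelium genes in the epididymis (15.1%), 5 of 5 vesicular secretion genes (the spermadhesins AWN, PSP-I, PSP-II and SPMI, and the sperm-binding protein BSP1) in the vesicular gland (2.95%), 4 of 5 prostate genes in the prostate gland (3.69%) and 3 of 4 mucous genes in the bulbourethral gland (8.45%). A gene was called where the Benjamini-Hochberg adjusted p was below 0.05 and the log2 difference was at least 1. Long-read libraries held 231413 to 458697 full-length reads, and the depth of the short-read libraries cannot be read from TPM. Within a library 10 transcripts took 9.24% to 64.7% of all TPM, and such a share lowers the TPM of every other gene. In whole glands, fewer cells of a type and less RNA per cell cannot be told apart. Of the short-read libraries, 4 stood apart from their group. BMI PG 2 held 316111 TPM of the vesicular secretion genes against 2.76 to 20.6 in the other 5 prostate libraries. DSE Tes 2 held 25782 TPM of spermatid genes against 77268 to 118044, and 61748 TPM of Leydig cell genes against 17852 to 31629. In DSE Epi 1, of 780 genes with at least 100 TPM in each of the other 5 epididymal libraries, 395 were below all 5, with a median log2 ratio of -0.42 to the others' median. BMI Epi 2 held 9677 TPM of LCN8, 10294 of RNASE10 and 6126 of LCN6, all epididymal secretory genes, where no other epididymal library passed 21.2, 20.1 and 290 TPM. Of the other epididymal epithelium genes, GPX5, ADAM7 and ADAM28 were also highest there. LCN10, CST11 and WFDC8 were highest in DSE Epi 1 instead, and EPPIN in BMI Epi 3. Without BMI Epi 2, 17 of 17 gland calls and 21 of 22 pair calls of the 5 genes given below were kept.

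CRISP1, CRISP2 and CRISP3 lie side by side on chromosome 7 of Sscrofa11.1, all on the minus strand, within 160898 bp. CRISP2 (ENSSSCG00000001736) spans chr7:43750914-43771908, CRISP3 (ENSSSCG00000024347) chr7:43777033-43804589 and CRISP1 (ENSSSCG00000001739) chr7:43883539-43911811. CRISP2 and CRISP3 are 5124 bp apart, and CRISP3 and CRISP1 78949 bp. PGK2, a glycolytic kinase of spermatogenic cells, lies between CRISP3 and CRISP1. CRISPLD1 (ENSSSCG00000006171) is on chromosome 4 (chr4:60948335-60998368) and CRISPLD2 (ENSSSCG00000002669) on chromosome 6 (chr6:3881718-3944583), both also on the minus strand. Nearby genes peaked in different glands. DEFB113 and DEFB114, beta-defensin genes past CRISP1 though not next to it, were highest in the epididymis at means of 767 and 80.0 TPM (91.5 and 15.9 without BMI Epi 2). PGK2 was highest in the testis at 350 TPM.

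**Figure D1:**
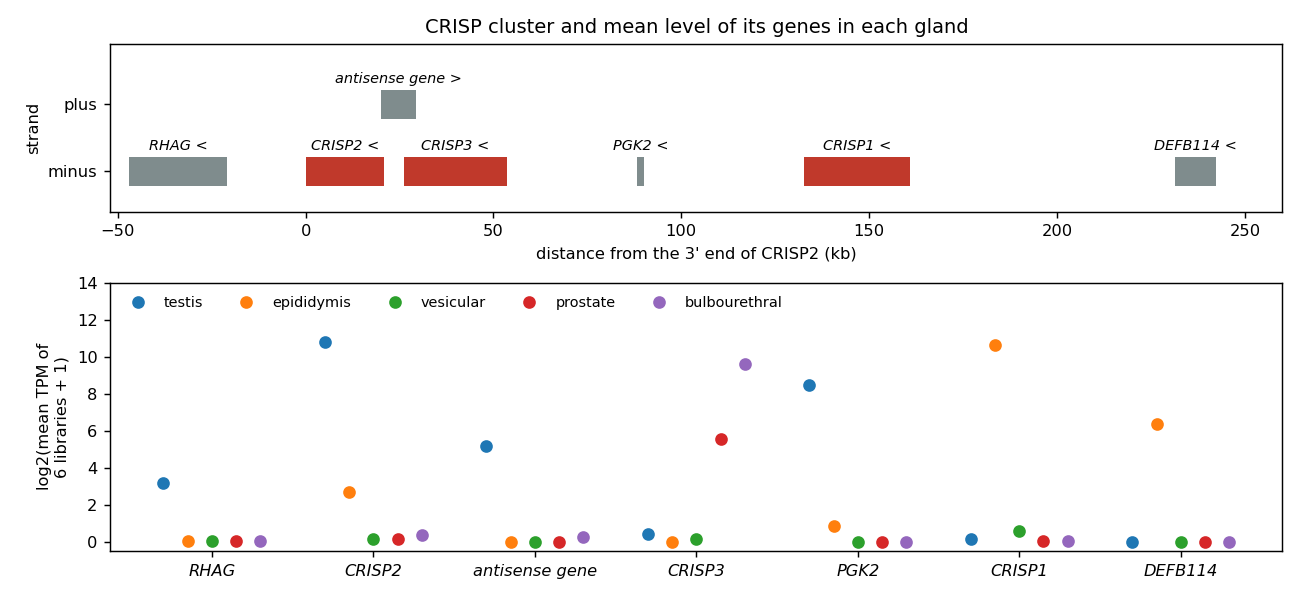
Upper panel: genes of the CRISP region of chromosome 7 by distance from the 3′ end of CRISP2 (kb), drawn to scale with their strands. Lower panel: log2(mean TPM + 1) over the 6 libraries of each gland for the same genes. CRISP2 peaks in the testis at a mean of 1774 TPM, CRISP3 in the bulbourethral gland at 792 TPM and CRISP1 in the epididymis at 1595 TPM.

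The promoters of the 3 clustered genes are shown because these neighbours differ so much in the gland they peak in. Each is 250 bases before to 50 bases after the start of the transcript with the most TPM, read on the minus strand of Sscrofa11.1 at chr7:43911615-43911914 for CRISP1, chr7:43770998-43771297 for CRISP2 and chr7:43804500-43804799 for CRISP3. Capitals mark matches to any of 3 motifs searched on both strands, namely TATAAA, the androgen receptor's core half-site AGAACA and the cAMP response element TGACGTCA.
CRISP1 promoter: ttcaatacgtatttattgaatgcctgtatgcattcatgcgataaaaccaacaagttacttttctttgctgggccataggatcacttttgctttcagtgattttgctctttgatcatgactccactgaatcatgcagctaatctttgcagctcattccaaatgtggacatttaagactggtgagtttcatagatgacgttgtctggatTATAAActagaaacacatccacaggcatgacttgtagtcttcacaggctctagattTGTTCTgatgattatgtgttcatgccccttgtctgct
CRISP2 promoter: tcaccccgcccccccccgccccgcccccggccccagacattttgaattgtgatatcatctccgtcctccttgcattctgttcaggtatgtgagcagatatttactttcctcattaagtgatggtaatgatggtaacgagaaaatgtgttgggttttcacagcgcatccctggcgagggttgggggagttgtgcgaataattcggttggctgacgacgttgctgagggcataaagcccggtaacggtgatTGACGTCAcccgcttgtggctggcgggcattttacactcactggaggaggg
CRISP3 promoter: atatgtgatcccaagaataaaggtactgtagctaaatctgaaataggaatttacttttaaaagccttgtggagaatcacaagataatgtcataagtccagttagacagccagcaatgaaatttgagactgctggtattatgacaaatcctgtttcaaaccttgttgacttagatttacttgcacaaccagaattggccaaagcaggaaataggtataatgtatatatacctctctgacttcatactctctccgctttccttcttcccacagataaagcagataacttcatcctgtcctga
The CRISP1 promoter held TATAAA on the gene's strand, 43 to 38 bases before the start, and AGAACA on the reverse strand (printed TGTTCT) inside the transcript. The CRISP2 promoter held TGACGTCA across its start, and the CRISP3 promoter held none of the 3. Of 19322 promoters of the same length in the annotation, 8.53% held TATAAA, 11.9% AGAACA and 2.75% TGACGTCA. The matches are letters in a window and not measured sites. The CRISP1 and CRISP3 windows had 39.0% and 37.0% GC with 3 and 1 CpG, the CRISP2 window 54.0% GC with 17 CpG. The CRISPLD1 and CRISPLD2 windows had 71.7% and 74.0% GC and none of the 3 motifs.

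CRISP1 was an epididymal transcript. Its TPM was 1141, 2759 and 1891 in the BMI epididymis and 21.3, 1100 and 2659 in the DSE epididymis, a mean of 1595 ± 1049 (SD, n = 6), the rank 101 among genes there. In 5 of the 6 libraries it lay between 1100 and 2759 TPM, and DSE Epi 1 alone was low. Outside the epididymis 1 library passed 1 TPM, BMI VG 1 at 2.28, and CRISP1 was listed at 0 in 5 of 6 libraries of both the prostate and the bulbourethral gland. Even the low epididymal library lay above the other 24, a pattern shown by 3.02% of all genes tested for the epididymis. No member showed it for the vesicular or the prostate gland, where 0.278% and 0.177% of genes did.

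In DSE Epi 1 CRISP1 had a log2 ratio of -6.41 to the median of the other epididymal libraries, and 6 of the 780 abundant genes had a lower ratio. CD52, a sperm surface glycoprotein of the epididymis, had -10.54, DEFB136 had -9.31 and CES5A, a secreted carboxylesterase, had -7.26. The summed TPM of the epididymal epithelium list was 15264 in that library, inside the range of 2053 to 45412 in the other 5, with ADAM7, a sperm-binding membrane protein of the epididymis, at 1399 TPM. The largest parts of that sum were CST11 at 8045 TPM and EPPIN at 3010. CST11, LCN10 and WFDC8 were higher there than in the other 5 epididymal libraries, and ADAM28 was lower. That library therefore held epididymal markers, in an uneven mix, but little CRISP1. By the study's read statistics it also had the lowest transcript integrity and the largest unmapped share of the short-read libraries. The part of its make-up and RNA quality in the CRISP1 value was not tested.

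CRISP2 was a testis transcript. Its TPM was 1870, 2487 and 1991 in BMI testis and 1896, 610 and 1789 in DSE testis, a mean of 1774 ± 622 (SD, n = 6) and rank 46 among genes. The lowest value came from DSE Tes 2, the library low in spermatid genes. ODF1, an outer dense fibre protein of the sperm tail, had 2084, 2203 and 2182 TPM in BMI and 1951, 628 and 1935 in DSE, so it was low in the same library. All 6 testis libraries lay above the other 24 for CRISP2, as for 23.8% of genes.

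In the epididymis CRISP2 was detected in 5 of 6 libraries, at 3.96, 24.2 and 0.207 TPM in BMI and 2.19, 0 and 1.69 in DSE. Spermatid genes summed to 112, 1041 and 20.2 TPM in the same BMI libraries and to 254, 1.61 and 64.4 in the DSE libraries. The highest CRISP2 value and the highest spermatid sum fell in the same library, BMI Epi 2, and the library without CRISP2 had the lowest sum. Whether sperm or detached spermatids carried this RNA was not tested. Vesicular gland, prostate gland and bulbourethral gland means were 0.108, 0.106 and 0.306 TPM.

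CRISP3 was highest in the bulbourethral gland, where its libraries differed little. The 6 values were 748, 970 and 823 TPM in BMI and 731, 770 and 709 in DSE, a mean of 792 ± 95.6 (SD, n = 6) and rank 121 among genes. The prostate gland came next at 88.0, 4.67 and 149 TPM in BMI and 9.92, 8.51 and 12.8 in DSE, a mean of 45.4 ± 59.7 with a wide spread. Apart from BMI PG 2, the BMI prostate libraries were above all DSE ones. With BMI PG 2 kept, 39.8% of the 13418 genes tested in this gland did not overlap between breeds. Means in the testis, vesicular gland and epididymis were 0.321, 0.0991 and 0.00477 TPM, and 5 of 6 epididymal libraries were listed at 0. All bulbourethral libraries lay above the other 24, as for 1.74% of genes.

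CRISPLD1 was low throughout. The bulbourethral gland had 2.49, 4.72 and 2.50 TPM in BMI and 1.40, 2.29 and 5.75 in DSE, a mean of 3.19 ± 1.67. The epididymis followed at 1.53 ± 0.799, the testis at 1.38 ± 0.455, the prostate gland at 0.729 ± 0.512 and the vesicular gland at 0.659 ± 0.409 (SD, n = 6 each). Of the bulbourethral libraries 2 of 6 lay above all libraries of the other glands, whose highest was BMI Epi 1 at 2.83.

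CRISPLD2 was present at 1 TPM or more in all 30 libraries, unlike CRISP1, CRISP2, CRISP3 and CRISPLD1, which reached that level in 7, 10, 12 and 18. In the epididymis it had 157, 23.8 and 9.81 TPM in BMI and 19.2, 188 and 69.1 in DSE, a mean of 77.8 ± 76.7 (SD, n = 6). The prostate gland had 11.8, 25.0 and 4.46 TPM in BMI and 56.1, 29.2 and 43.4 in DSE, a mean of 28.3 ± 19.2. Epididymal values spanned a wide range, 3 of 6 lay above every other gland, and the other 3 fell among the rest. The bulbourethral gland had 24.1 ± 14.4, the vesicular gland 15.9 ± 9.84 and the testis, lowest of all, 9.16 ± 3.98 TPM.

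**Figure D2:**
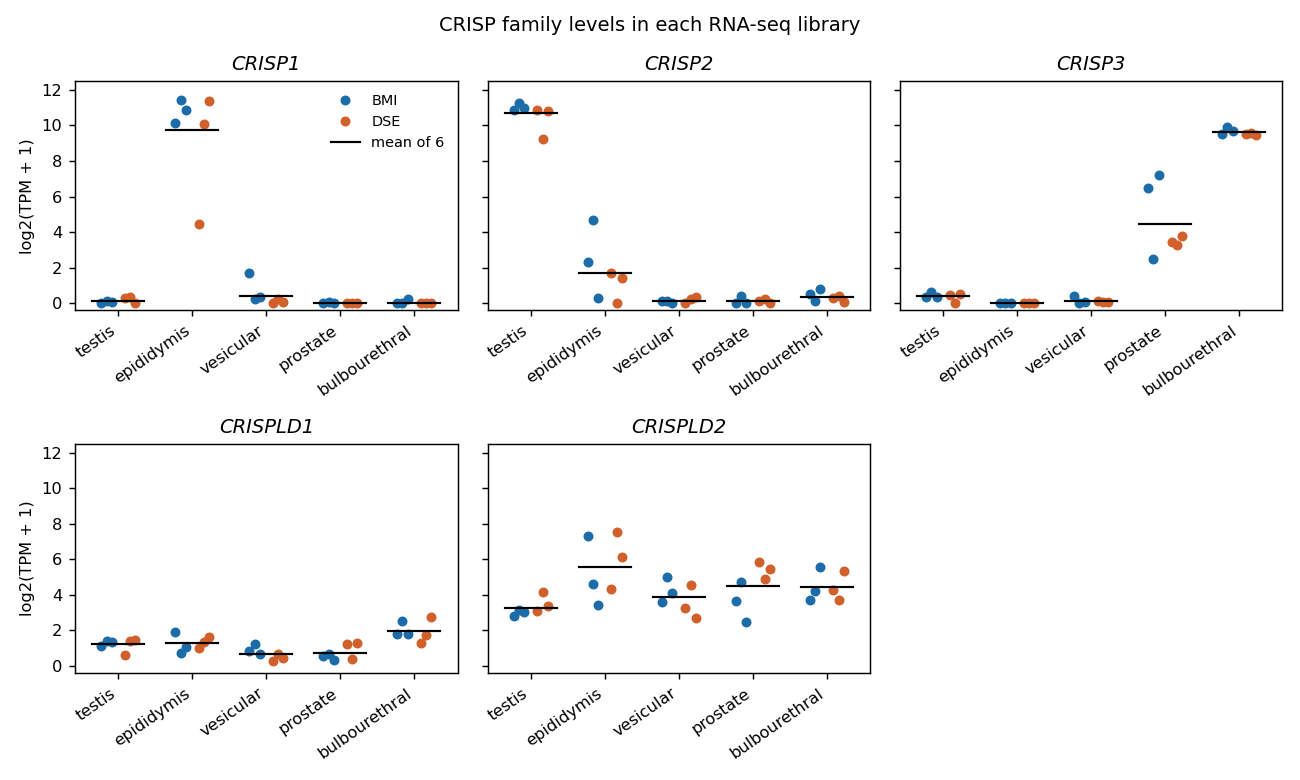
log2(TPM + 1) of the 5 genes in each of the 30 libraries, by gland, with BMI in blue, DSE in orange and a black line at the mean of the 6 libraries of a gland. CRISP1, CRISP2 and CRISP3 each have 1 gland whose libraries lie above the other 24, while CRISPLD1 and CRISPLD2 overlap between glands.

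To place these levels against the spread between libraries, each gland was compared with the mean of the other 4 in a limma fit of all 30 libraries on log2(TPM + 1), a scale that understates changes of low genes. The call rule was that of the markers, with p adjusted over 19791 genes by the Benjamini-Hochberg method. CRISP2 was 10.08 ± 0.35 (log2 difference ± SE) higher in the testis, adjusted p = 1.36e-18. CRISP1 was 9.58 ± 0.51 higher in the epididymis, adjusted p = 2.56e-13, and 10.63 ± 0.20 higher without DSE Epi 1. CRISP3 was 8.38 ± 0.35 higher in the bulbourethral gland, adjusted p = 1.8e-15, and 1.91 ± 0.35 higher in the prostate gland, adjusted p = 8.09e-05. Each of the 3 clustered genes thus passed in a gland of its own, and CRISP3 in a further one.

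The relatives with LCCL domains moved far less. CRISPLD2 was 1.54 ± 0.45 higher in the epididymis in limma, adjusted p = 0.00564, and 1.33 ± 0.45 lower in the testis (log2 difference -1.33), adjusted p = 0.0105. The epididymal call was lost without BMI Epi 1, at 0.99 with an adjusted p of 0.0502. With Ensembl transcripts alone both calls were lost, and the differences were -0.15 in the epididymis and -0.23 in the testis. CRISPLD1 was 0.99 ± 0.19 higher in the bulbourethral gland with an adjusted p of 0.000137, just under the fold limit, so it was not called, though 14 of 37 alternatives called it.

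Within the epididymis the CRISPLD2 values moved with markers of stromal cells. There, fibroblast genes summed to 8714, 1528 and 529 TPM in BMI and 474, 3697 and 1577 in DSE. Of this list 6 of 7 were called higher in the epididymis (15.1% of all genes were) and 3 of 7 in the bulbourethral gland (8.45%). Smooth muscle genes summed to 13745, 2291 and 5040 TPM in BMI and 3705, 20837 and 7978 in DSE. Here 5 of 5 were called higher in the epididymis (15.1% of all genes), 4 of 5 in the vesicular gland (2.95%) and 1 of 5 in the prostate gland (3.69%). The highest CRISPLD2 values, BMI Epi 1 and DSE Epi 2, came from the libraries highest in both lists. Across glands the order of smooth muscle genes differed from that of CRISPLD2. Their median sum was 203 TPM in the bulbourethral gland and 2182 in the vesicular gland, where mean CRISPLD2 was 24.1 and 15.9 TPM. Fibroblast median sums were 175 TPM in the testis, 551 in the vesicular, 817 in the prostate and 1244 in the bulbourethral gland, and 1552 in the epididymis. That was the order of mean CRISPLD2, except that the prostate and bulbourethral glands were swapped. In the bulbourethral gland, where CRISPLD1 was highest, plasma cell genes summed to 24.1, 290 and 195 TPM in BMI and 30.4, 48.5 and 276 in DSE. Of them 3 of 3 were called higher there (8.45% of all genes were). The CRISPLD1 maxima, BMI BG 2 and DSE BG 3, fell in the libraries highest in that list. The part of these cells in either value was not tested.

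Counted over glands, 17 of 25 member tests were called, 5 higher and 12 lower. In the testis 1 member was higher and 3 were lower, where 34.6% and 12.7% of all genes were. In the epididymis 2 were higher and 2 lower, against 15.1% and 6.56% of genes, and in the vesicular gland none was higher and CRISP1, CRISP2 and CRISP3 were lower, against 2.95% and 30.1%. In the prostate gland 1 was higher and 2 were lower, against 3.69% and 12.8%, and in the bulbourethral gland 1 was higher and 2 were lower, against 8.45% and 12%. All lower calls but that of CRISPLD2 in the testis fell on CRISP1, CRISP2 and CRISP3. For these genes the mean of the other 4 glands holds the gland where the gene peaks. Their lower calls follow from the peaks and are not separate results. They include CRISP2 in the epididymis (log2 difference -1.11), where that mean holds the testis. That CRISP2 call was lost without BMI Epi 3, at -0.57, without DSE Epi 2, at -0.85, with a pseudocount of 0.1, at -0.44, and with Ensembl transcripts alone, at -0.85.

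**Figure D3:**
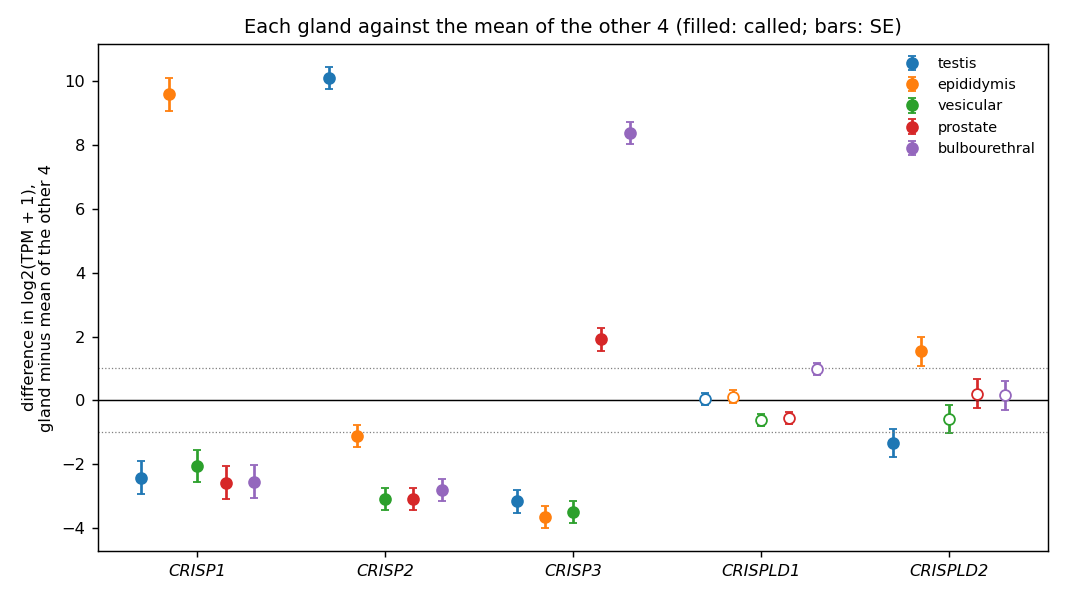
limma log2 difference of each gland from the mean of the other 4 glands for the 5 genes, with bars for the SE, filled points for called differences and dotted lines at 1 and -1. CRISP2 in the testis, CRISP1 in the epididymis and CRISP3 in the bulbourethral gland stand at 10.08, 9.58 and 8.38, and no CRISPLD difference exceeds 1.54 in size.

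Pairs of glands were then tested to order the levels, and 22 of 50 tests were called. Testis against epididymis had 3 members called, where 51% of genes were, testis against vesicular gland 1 (52.9%), testis against prostate gland 2 (48.9%) and testis against bulbourethral gland 2 (49.1%). Epididymis against vesicular, prostate and bulbourethral gland had 3 each (36.5%, 21.3% and 21.3%). Vesicular against prostate gland had 1 (14.8%), vesicular against bulbourethral gland 2 (27.7%) and prostate against bulbourethral gland 2 (7.63%).

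The order of CRISP3 was resolved for its 2 upper glands. It was 5.17 ± 0.44 higher in bulbourethral than in prostate gland on the log2 scale (limma, adjusted p = 5.19e-09), and its prostate level was 4.06, 4.44 and 4.32 above testis, epididymis and vesicular gland. Those 3 were not called different from each other, though with a pseudocount of 0.1 CRISP3 was called higher in the testis than in the epididymis, by 1.82 (limma, adjusted p = 0.00614). For CRISP1 no pair among the 4 glands below the epididymis was called. CRISP2 was higher in the epididymis than in the vesicular gland by 1.58 (adjusted p = 0.00356), the prostate gland by 1.59 (adjusted p = 0.00553) and the bulbourethral gland by 1.36 (adjusted p = 0.0178), though the last was not called without BMI Epi 2, at 0.80 and an adjusted p of 0.0622.

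CRISPLD1 was higher in the bulbourethral gland than in the vesicular gland by 1.28 (limma, adjusted p = 0.000113, 0.90 and not called with size factors) and than in the prostate gland by 1.24 (adjusted p = 0.000674), and its level was 0.70 above the epididymis (adjusted p = 0.0267) and 0.75 above the testis (adjusted p = 0.00854), both under the fold limit and not called. CRISPLD2 was higher in the epididymis than in the testis by 2.30 ± 0.57 (adjusted p = 0.000967) and than in the vesicular gland by 1.69 (adjusted p = 0.0127). Its epididymal level was 1.06 above the prostate gland (adjusted p = 0.141) and 1.10 above the bulbourethral gland (adjusted p = 0.140), and neither difference passed. The testis was not called different from the vesicular, prostate and bulbourethral glands, but was called lower than each with size factors, with log2 differences of -1.42, -1.51 and -1.21. It was also called different from the prostate gland without BMI Epi 1, BMI Epi 3, DSE Epi 1, DSE Epi 2 or BMI PG 3. From the bulbourethral gland it was so without BMI Epi 1, BMI Epi 3, DSE Epi 1 or BMI BG 1, and without BMI PG 2, DSE Epi 1 and DSE Tes 2 together. The differences of the epididymis from the prostate and bulbourethral gland passed without BMI Epi 3, at 1.48 and 1.52, without DSE Epi 1, at 1.48 and 1.52, and without the 3 libraries BMI PG 2, DSE Epi 1 and DSE Tes 2, at 1.75 and 1.52. The difference of the epididymis from the vesicular gland was not called without BMI Epi 1, at 1.15, without DSE Epi 2, at 1.31, or with size factors, at 0.65, and with Ensembl transcripts alone it turned to -0.64.

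The inbred line and its source breed were compared within each gland from 6 libraries, for members with at least 1 TPM in at least 3 of them. None of the 13 member tests was called, in glands where 0.582% (testis), 0% (epididymis), 0.882% (vesicular gland), 0.358% (prostate gland) and 0.0877% (bulbourethral gland) of genes were. In the epididymis, 292 of 15306 genes had an unadjusted limma p below 0.05. CRISP1 in the epididymis was -2.17 ± 1.67 (DSE minus BMI, log2) with all libraries and -0.08 ± 0.56 without DSE Epi 1. CRISP2 in the testis was -0.72 ± 0.44 (adjusted p = 0.466) with all libraries and -0.19 ± 0.19 without DSE Tes 2. The breed gap of both genes thus rested on 1 library. CRISP3 in the bulbourethral gland was -0.19 ± 0.20.

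In the prostate gland CRISP3 was -1.91 ± 1.10 (limma, adjusted p = 0.25) and CRISPLD2 1.80 ± 0.54 (adjusted p = 0.0928). Without BMI PG 2, the library rich in vesicular secretion genes, CRISP3 was -3.36 ± 0.28 (adjusted p = 0.00435) and CRISPLD2 2.35 ± 0.41 (adjusted p = 0.0243). Both then passed, but so did 7.12% of genes, 942 against 48 with all libraries. A test of whether the breed difference varied between glands called no member (adjusted p from 0.510 for CRISP3 to 0.691 for CRISP2, with 2.6% of genes called). It called CRISP3 without BMI PG 2 (adjusted p = 1.96e-07, with 2.65% of genes called).

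Markers of other cells were read in the same prostate libraries. AGR2, a secretory cell protein of mucous epithelia, had 231, 168 and 41.8 TPM in BMI and 2184, 740 and 1445 in DSE prostate. The mucous list, of which AGR2 is the main part, summed to 294, 237 and 116 TPM in BMI and 2203, 806 and 1512 in DSE. Fibroblast genes summed to 688, 945 and 194 against 1700, 529 and 980 TPM, and smooth muscle genes to 408, 2096 and 206 against 2850, 1631 and 3485. AGR2 did not overlap between breeds, as was the case for 39.8% of the 13418 genes tested in this gland, while the fibroblast sums overlapped. The smooth muscle sums overlapped through BMI PG 2 alone, and without it those of BMI lay below all of DSE. PITX1, which followed CRISP3 over the 30 libraries, had 94.4, 30.3 and 207 TPM in BMI and 63.3, 41.0 and 54.1 in DSE prostate. ATP2C2, of the same kind, had 27.6, 6.39 and 16.8 against 8.42, 11.3 and 12.8 TPM. For both, as for CRISP3, BMI PG 1 and 3 lay above every DSE library and BMI PG 2 was lowest, which was not so for GABRD (4.23, 0.891 and 6.01 against 5.25, 4.34 and 6.83 TPM). These genes were picked for likeness to CRISP3 over libraries that include these, so a like pattern is partly built in. The share of all genes with that pattern was not counted. The part of these genes and markers in the CRISP3 and CRISPLD2 values was not tested.

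Full-length reads gave a separate view of the same glands, from 1 library per breed and gland, so the values have counting intervals (exact Poisson, 95%) that cover counting error only, and no test. CRISP2 had 1133 reads in BMI testis, 2490 reads per 1000000 (RPM; 2347 to 2639), and 1618 in DSE testis, 3534 RPM (3364 to 3711). In the epididymis it had 10 and 3 reads. CRISP3 had 1029 reads in BMI bulbourethral gland, 2648 RPM (2489 to 2815), and 750 in DSE, 2826 RPM (2627 to 3036). The glands of CRISP2 and CRISP3 were thus the same as in the short reads.

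CRISP3 in the prostate gland had 1 read in BMI, 3.80 RPM (0.0962 to 21.2), and 12 in DSE, 35.7 RPM (18.5 to 62.4). CRISPLD2 there had 40 reads in BMI, 152 RPM (109 to 207), and 9 in DSE, 26.8 RPM (12.2 to 50.8). For both genes the breed order was opposite to that of the short-read means, and the intervals overlapped for CRISP3 and not for CRISPLD2. The BMI prostate Iso-seq library held 8911 reads of the vesicular secretion genes, 33842 RPM, and 11 reads of MSMB, a main secretory protein of the prostate, or 41.8 RPM. The DSE library held 0 such reads and 123 of MSMB, 366 RPM. The BMI long-read prostate library thus carried vesicular gland transcripts, and the part of this in the reversed order was not tested.

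CRISP1 was nearly absent from the long reads. It had 3 reads in BMI epididymis, 6.54 RPM (1.35 to 19.1), and 1 in BMI vesicular gland. DSE epididymis had none, with an interval up to 15.9 RPM (13.0 RPM by the limit of 3 reads). Among 118 genes with a TPM within 2-fold of its epididymal mean the median was 21.5 reads, and 20 of them (16.9%) had as few. Among the 49 of these whose length was also within 1.5-fold, the median was 51 reads and 7 had as few. CRISP2, with 2751 testis reads, was at or above 75 of 80 genes of like TPM (93.8%) and 20 of 22 of like length too, and CRISP3, with 1779 bulbourethral reads, at or above 122 of 131 (93.1%) and 23 of 29 of like length too. Genes of like TPM therefore differed widely in long-read yield, with CRISP1 in the lower part and its 2 neighbours in the upper.

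CRISPLD1 had 23 reads in all, 0 to 7 per library with the most in BMI epididymis. CRISPLD2 had 323, of which 71 fell in BMI epididymis, 155 RPM (121 to 195), and 46 in DSE epididymis, 199 RPM (146 to 265). The bulbourethral gland held 67 reads of CRISPLD2 in BMI, 172 RPM (134 to 219), and 22 in DSE, 82.9 RPM (51.9 to 125). The vesicular gland had 68.1 and 34.6 RPM and the testis 37.4 and 43.7 RPM. CRISPLD2 was again present in every library, and in BMI the bulbourethral, epididymal and prostate intervals overlapped.

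**Figure D4:**
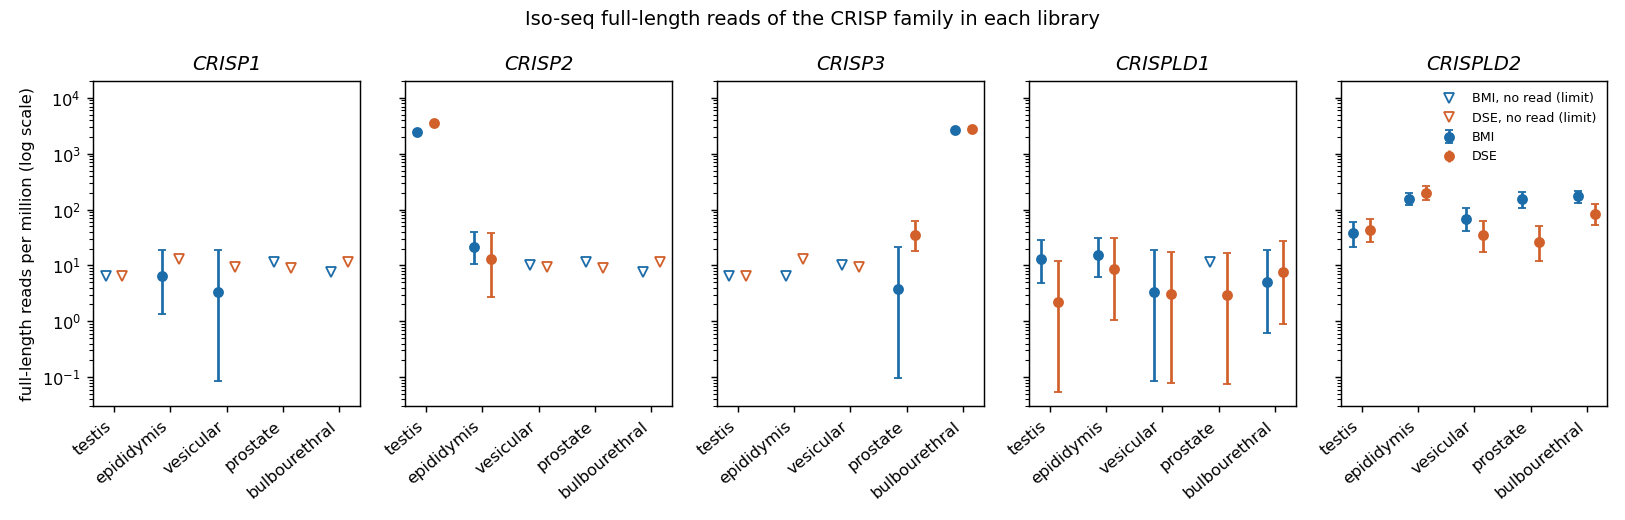
Full-length Iso-seq reads as RPM (log scale) of the 5 genes in the 10 libraries, with exact Poisson 95% intervals for counting error. Open triangles are libraries without a read, drawn at the limit of 3 reads. CRISP2 reaches 2490 and 3534 RPM in the testis and CRISP3 2648 and 2826 in the bulbourethral gland, while CRISP1 has 6.54 in BMI epididymis and no read in DSE epididymis.

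CRISP2 had 22 Iso-seq isoforms, of which 12 had at least 5 reads. Of 22298 genes 614 (2.75%) had more than 22, and the median was 2, with no allowance made for the number of reads per gene. CRISP3 had 4, CRISP1 and CRISPLD2 had 2 each and CRISPLD1 had 1. All 22 held at least 1 splice site outside the reference, a class that took 50.2% of the 110996 isoforms of all genes. Of the 22, 21 had a predicted open reading frame, 4 were predicted targets of nonsense-mediated decay, 18 had only canonical splice sites, none was marked as template switching and all carried a polyadenylation motif.

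The main CRISP2 isoform differed from the reference at its start. PB.17599.1, with 2212 of the 2764 CRISP2 reads, 10 exons and 1731 nt, began 1043 bp upstream of the Ensembl transcript ENSSSCT00000001941 with a first exon of its own. It kept all 8 Ensembl junctions and encoded the same 244 residues. Its reads were 81.5% of CRISP2 reads in BMI testis (Wilson 95% interval 79.1 to 83.6) and 78.9% in DSE testis (76.8 to 80.8). Among reads of isoforms with a predicted frame, those with the whole 244-residue frame took 2243 (81.2%), those with a frame of 186 residues 391 (14.2%) and those with 144 residues 108 (3.91%).

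The most-read isoforms with shorter frames each differed from PB.17599.1 by 1 exon, while several rarer ones skipped or added more. PB.17599.2, with 120 reads in BMI and 240 in DSE testis, had an extra exon of 169 bp at chr7:43764666-43764834, and its frame was the last 186 residues of the full protein. PB.17599.19, with 34 and 39 reads, lacked exon 6 of PB.17599.1, an exon of 88 bp, and its frame was the last 144 residues, which hold 14 of the 16 cysteines. Neither length is a multiple of 3. Exon 6 (chr7:43762261-43762348, minus strand, Sscrofa11.1) is shown with 10 intronic bases on each side because its loss shortens the protein, with the exon in capitals.
CRISP2 exon 6: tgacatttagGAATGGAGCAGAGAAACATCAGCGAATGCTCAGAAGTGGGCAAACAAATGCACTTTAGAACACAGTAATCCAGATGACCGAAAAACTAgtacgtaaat
A frame that starts later would lack the start of the protein, where secreted CAP proteins carry their signal peptide. Whether either short protein is made was not measured.

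**Figure D5:**
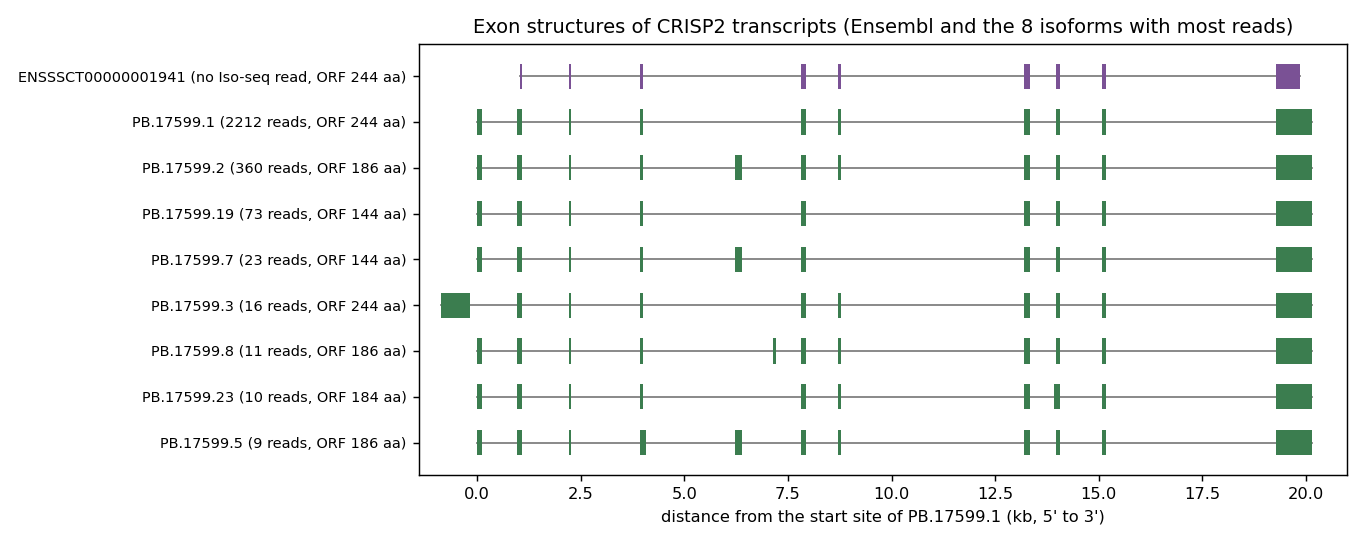
Exon structures of CRISP2 by distance from the start of PB.17599.1 (kb, to scale), with the Ensembl transcript in purple and the 8 Iso-seq isoforms with the most reads in green. All 8 begin upstream of the Ensembl start, PB.17599.2 has an additional exon of 169 bp, and PB.17599.19 lacks the 88 bp exon 6.

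In the testis the short reads gave the same leading CRISP2 transcript. PB.17599.1 took 68.4 ± 4.2% of CRISP2 TPM in the testis (SD, n = 6), the Ensembl transcript 18.0 ± 4.3%, PB.17599.2 7.7 ± 1.5% and PB.17599.19 2.4%. In the 4 epididymal libraries with at least 1 TPM of CRISP2, PB.17599.1 took 36.9 ± 20.6% and the Ensembl transcript 57.7 ± 23.9%. The share of PB.17599.1 was lower there by an exact permutation test (two-sided p = 0.00952, 0.0381 after Benjamini-Hochberg adjustment over the 4 genes compared). With any 1 testis library left out the adjusted exact permutation p was 0.0635, and without BMI Epi 1, BMI Epi 2, DSE Epi 1 or DSE Epi 3 it was 0.0952, so the result passed only with all 10 libraries, though each p was the smallest that these numbers of libraries allow. Those epididymal libraries held 1.69 to 24.2 TPM of CRISP2, so their shares rest on little signal. The full-length reads, also few there, did not show the lower share. In BMI epididymis all 10 CRISP2 reads were PB.17599.1 (100%, Wilson interval 72.2 to 100), against 81.5% in BMI testis. In DSE epididymis all 3 were PB.17599.1, against 78.9% in DSE testis.

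For the other genes no difference in the share of the leading transcript between the 2 glands with most TPM passed the test. CRISP3's ENSSSCT00000029500 took 86.0 ± 3.4% in the bulbourethral and 85.5 ± 12.1% in the prostate gland (exact permutation p = 0.981), a difference that became -4.26 percentage points without BMI PG 3 (exact permutation p = 0.0433, 0.0866 adjusted), with PB.17600.3 at 13.3% in the bulbourethral gland. CRISPLD2's PB.15200.13 took 99.75% in the epididymis and 99.3% in the prostate gland (exact permutation p = 1), and CRISPLD1's leading transcript 88.8 ± 18.9% in the bulbourethral gland and 66.5 ± 38.7% in 4 epididymal libraries (exact permutation p = 0.324). CRISP1's ENSSSCT00000001944 took 92.9%, 80.5% and 86.4% in BMI and 26.0%, 88.6% and 84.0% in DSE epididymis, low in DSE Epi 1, where CRISP1 itself was low. Since CRISP1 was near 0 in other glands, its share was not compared.

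Single transcripts were fitted in the same way as genes, as a description and not separate support, since their TPM make up the gene sums. In limma fits of 64661 transcripts, 17 of 17 tested CRISP2 transcripts were higher in the testis (log2 differences 1.04 to 9.86), where 28.4% of all transcripts were. PB.17599.1 had 9.86 ± 0.30 (adjusted p = 5.16e-19), ENSSSCT00000001941 7.74 and PB.17599.2 6.91. All 4 CRISP1 transcripts were higher in the epididymis (1.58 to 9.20; 9.63% of all), as was 1 of 2 of CRISPLD2 (1.56), and all 3 tested CRISP3 transcripts were higher in the bulbourethral gland (2.45 to 8.25; 6.37% of all). In the prostate gland 1 CRISP3 transcript was higher, by 1.77 (2.6% of all). Most of these transcripts passed the minimum of 1 TPM in 3 libraries only through the gland where they are high. Their counts were thus largely set by the filter.

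The predicted proteins show how close the 5 genes are. As translated from the annotated frames on Sscrofa11.1, CRISP1, CRISP2 and CRISP3 have 249, 244 and 245 residues with 16 cysteines each, all 16 of which align. CRISP2 and CRISP3, the nearest neighbours on the chromosome, share 63.1% of aligned residues, CRISP1 and CRISP2 45.3% and CRISP1 and CRISP3 42.0%. CRISPLD1 and CRISPLD2 have 500 and 497 residues with 25 and 26 cysteines and share 58.0%. Identity between a CRISP and a CRISPLD protein was 35.5% to 40.5%. How reads that map to more than 1 of these genes were shared was not examined.

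A gene on the opposite strand reaches from the 5′ end of CRISP2 into CRISP3. It was built from 3 Iso-seq isoforms at chr7:43771118-43780176 on the plus strand, overlaps the 3′ part of CRISP3 by 3144 bp and the CRISP2 span, which the far first exon of PB.17599.3 extends, by 791 bp. It starts 70 bases away from the start of PB.17599.1, so the CRISP2 promoter printed above also covers its start. Its testis TPM was 37.0, 33.2 and 46.9 in BMI and 41.4, 6.32 and 44.4 in DSE, a mean of 34.9 ± 14.8 (SD, n = 6), and it was listed at 0 in every library of the epididymis, vesicular gland and prostate gland, with a mean of 0.182 in the bulbourethral gland. Its Pearson r was 0.96 with CRISP2 and -0.28 with CRISP3 over the 30 libraries, which share the contrast of testis with other glands. The sources used here do not say whether strand was kept in the short-read counts, so short reads of this gene cannot be told apart from those of CRISP2 or CRISP3 where they overlap.

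The genes whose log2(TPM + 1) was most like each member over the 30 libraries were named as a description, since libraries of one gland share their cells. For CRISP1 they were NECAB1, CES5A and ACOXL, each with r = 0.99, at epididymal means of 28.7, 938 and 25.9 TPM, and 93 genes had r over 0.9. For CRISP2 they were ODF1 (r = 0.999), the sperm mitochondria protein SMCP (r = 0.998) and CBY2 (r = 0.998), among 1845 genes with r over 0.9. For CRISP3 they were ATP2C2, a Golgi calcium and manganese pump (r = 0.98), GABRD (r = 0.97) and the transcription factor PITX1 (r = 0.97), at bulbourethral means of 272, 24.9 and 445 TPM, among 43 genes over 0.9.

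CRISPLD1 had no gene with r over 0.9 and its nearest were tissue factor F3 (0.88), the immunoglobulin J chain JCHAIN (0.84) and ARNTL2 (0.83). For CRISPLD2 they were the guidance cue SLIT2 (0.96), LHFPL6 (0.96) and ZCCHC24 (0.95), with epididymal means of 6.50, 72.7 and 27.6 TPM, among 34 genes over 0.9. The CRISP2 pattern was thus shared with many genes and the CRISP3 pattern with few.

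Other CAP proteins were followed too. Of 10 listed relatives 7 were in the table and 6 were tested. GLIPR1L1, a sperm surface CAP protein, was 6.17 ± 0.17 (limma log2 difference ± SE) higher in the testis at 83.5 ± 36.0 TPM (SD, n = 6), and GLIPR1L2 3.08 ± 0.16 higher at 8.40 TPM, while 3 relatives were lower there (34.6% of all genes were higher and 12.7% lower). In the epididymis PI15 was 2.75 ± 0.32 higher at 18.6 TPM, GLIPR1 2.09 ± 0.24 at 9.80 TPM and GLIPR2 1.82 ± 0.36 at 31.7 TPM, and 1 was lower (15.1% and 6.56% of all genes). In the prostate gland PI16 was 1.94 ± 0.67 higher (adjusted p = 0.0195) at 61.2 TPM and 1 was lower (3.69% and 12.8%). In the vesicular and bulbourethral glands none was higher and 1 was lower in each, where 30.1% and 12% of all genes were lower. These counts, and that of 2 of 6 higher in the testis, are near or below the share of all genes. The median log2 difference of the 6 was -1.17 in the testis (0.31 over all genes), 1.37 in the epididymis (0.25), 0.11 in the vesicular gland (-0.69), -0.55 in the prostate gland (-0.28) and -0.80 in the bulbourethral gland (-0.05).

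Proteins reported to bind a CRISP or to be regulated by one, here called partners, were read in the same way. Of 6 listed, 4 were tested. GGN, a germ cell protein that binds CRISP2, was 6.63 ± 0.22 higher in the testis at 275 TPM, and CATSPER1, a subunit of the sperm calcium channel, 4.36 ± 0.24 higher at 37.1 TPM, and 1 partner was lower there (34.6% of all genes were higher and 12.7% lower). MSMB, which binds CRISP3 in seminal plasma, was 12.37 ± 0.22 higher in the prostate gland at 131479 TPM, where CRISP3 was second highest, and 2 partners were lower (3.69% of all genes were higher and 12.8% lower). In the epididymis 1 of 4 partners was lower (6.56% of all genes), in the vesicular gland 3 (30.1%) and in the bulbourethral gland 3 (12%), and MAP3K11 was called in no gland. No relative or partner was called between breeds in any gland.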

How the data were processed

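RNA was measured in 30 short-read RNA-seq and 10 Iso-seq libraries from 5 glands of 2 pig breeds. The authors aligned long reads with GMAP (GSNAP in the submitters' processing notes), classified isoforms with SQANTI3, added the retained ones to the Ensembl annotation of susScr11 (Sscrofa11.1) and quantified short reads with Salmon 1.9.0 (the same notes also list STAR 2.7.10a and Bowtie 1.3.1). They deposited TPM per transcript and counts of full-length reads per isoform. The deposited isoform summary also gives a percent of A bases downstream of each end. The labels name ribosomal RNA depletion and the methods poly-T beads, and whether strand was kept is not given in the sources used here. Small RNA files were not used here.

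TPM were summed by gene name. A gene entered the fits when 3 or more libraries reached 1 TPM. Fits used limma 3.58.1 (R 4.3.3) on log2(TPM + 1), as 10 groups of 3, or within a gland for breeds, with Benjamini-Hochberg adjustment over all genes tested. Calls needed an adjusted p below 0.05 and a log2 difference of at least 1. On data simulated for the testis against the other glands (17736 genes) changes of 1, 2 and 3 on the log2 scale were recovered in 40.6%, 98.5% and 100% of cases, and for the breeds in the testis (15486 genes) in 0%, 61.3% and 94.4%. Leading transcript shares were compared by exact permutation tests (scipy 1.17.1). Read counts carry exact Poisson and Wilson intervals, and a count of 0 a limit of 3 reads. Named genes were the 5 members with their main or called transcripts, the 3 genes most correlated with each, and lists of relatives, partners and cell type markers. The members and lists were chosen with earlier results of these data known. Promoter and exon sequences and translated frames were read from the Sscrofa11.1 genome with the deposited annotation. Other pseudocounts, scaling, filters, annotation, spread model, blocks and left-out libraries were tried.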

Additional observations from a re-analysis of the deposited data

Results flagged for a closer look

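CRISP1 in DSE Epi 1 lay far below the other 5 epididymal libraries, its gap to the nearest value divided by the range of all 6 being 0.809 (Dixon ratio). CRISP2 in DSE Tes 2 lay far below the other 5 testis libraries (Dixon ratio 0.765), and so did the gene antisense to CRISP3 in the same library (Dixon ratio 0.820). Each ratio was above the 95% critical value for 6 samples. Of 14 groups examined these 3 passed, where chance passes about 1 in 20 groups.

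The antisense gene was built from full-length reads of these same libraries, so its presence in them is given by construction. It had 10.99 reads per 1000000 in BMI testis and 10.9 in DSE testis (5 reads each), above the limit that a count of 0 allows. With canonical splice sites and no mark of template switching required, 2 reads in BMI (4.40 per 1000000, under the limit of 6.59) and 4 in DSE remained, and none of its isoforms had 5 reads over all libraries.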

How the results depend on the processing

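Whether the replicate numbers pair the libraries was left undetermined. Across glands of one breed 60 pairs with the same number had deviations correlated from -0.30 to 0.39 (21 over 0.1), and across breeds 15 pairs from -0.55 to 0.37 (4 over 0.1). Pairs with different numbers were not computed for comparison, so these values cannot decide it. With the replicate number as a block, 17 of 17 gland calls and 22 of 22 pair calls were kept and no breed call was made. Leaving out each library in turn gave 16 to 18 gland calls (17 with all), 21 to 26 pair calls (22), 0 to 2 breed calls (0) and 0 to 1 interaction calls (0). The non-zero breed counts came from leaving out BMI PG 2. Without BMI PG 2, DSE Epi 1 and DSE Tes 2 together, an alternative chosen after seeing the data like the left-out libraries of the interaction, 2 breed calls and 1 interaction call were made. A pseudocount of 0.1 raised the calls of member transcripts from 60 to 107, added gland calls of CRISPLD1 in the vesicular, prostate and bulbourethral glands, and added 5 pair calls, of CRISP3 in the testis against the epididymis, and of CRISPLD1 in the testis against the vesicular and bulbourethral glands and in the epididymis against the vesicular and prostate glands.

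Size factors moved the median log2 difference of all genes in the epididymis from 0.25 to -0.14 and in the vesicular gland from -0.69 to -0.20, and the share of higher calls from 69.7% to 48.3% and from 8.94% to 37.8%. They kept 17 of 17 gland calls and 20 of 22 pair calls and added 3, of CRISPLD2 lower in the testis than in each accessory gland; CRISPLD2 in the epididymis against the vesicular gland dropped to 0.65 and CRISPLD1 in the bulbourethral against the vesicular gland to 0.90. With Ensembl transcripts alone, which left out PB.15200.13 with 99.9% of the CRISPLD2 mean in the epididymis and 93.4% in the vesicular gland, CRISPLD2 turned to -0.15 in the epididymis against the other glands and to -0.64 against the vesicular gland, and its testis difference was -0.23 and not called. CRISP2 in the epididymis lost its lower call with a pseudocount of 0.1, at -0.44. CRISPLD1, DSE minus BMI, ranged in the epididymis from -0.19 to 0.42 with a library left out, and turned from 0.07 to -0.19, -0.016 and -0.072 without BMI 2, BMI 3 and DSE 3, and in the bulbourethral gland from -0.13 to 0.11 and 0.20 without BMI 2 and DSE 1. Leaving out libraries, the share difference of the leading transcript ranged from 21.4 to 36.7 percentage points for CRISP2 (adjusted exact permutation p up to 0.0952, over 0.05 in 10 of the 12 cases), from -4.26 to 2.16 for CRISP3 (-4.26 without BMI PG 3, exact permutation p = 0.0433, 0.0866 adjusted, -0.019 without BMI BG 3), from 10.3 to 33.4 for CRISPLD1 and from -0.25 (without BMI PG 1) to 0.57 for CRISPLD2. CRISP1 reads in the BMI epididymis and vesicular gland went from 6.54 and 3.40 reads per 1000000 to 0 when only isoforms with at least 5 reads were kept. The causes were not tested.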
